A study of Mus musculus with 12 samples.

Results

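The S phase and DNA replication genes of mouse tumours are described here. They are 43 of the 45777 genes in the deposited count table, chosen by symbol as a fixed list of origin licensing, helicase, polymerase, clamp loader, nucleotide supply, chromatin copying and S phase entry genes. All 43 were found, and all 43 were among the 17885 genes that passed the filter on low counts, with 282 to 11804 counts per gene and library. The samples were 12 libraries from subcutaneous tumours of 393P cells, a line of mouse lung cancer, in male 129S2/SvPasCrl mice aged 8 weeks. The injected cells were labelled MAVS knockout or MAVS reconstituted. MAVS sits on mitochondria and passes on the signal of RNA sensors in the cytosol, which can start interferon production. Mice of each genotype group received control treatment, or 5 mg/kg of the MPS1 inhibitor (MPS1i) BAY-1217389 given 2 times a day for 2 days, with tumours taken the next day. MPS1, the product of Ttk, is a kinase of the spindle checkpoint. The 4 groups are called knockout control, knockout inhibitor, reconstituted control and reconstituted inhibitor below, with 3 libraries each. The design text names the question as which expression changes after a pulse of inhibitor depend on MAVS. The genotypes were different injected populations, and an effect of MAVS cannot be told apart from other differences between them. Whether each library came from its own animal is not in the labels, and p-values then reflect only the spread of these libraries, which may be technical.

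DNA replication starts when the origin recognition complex, Cdc6 and Cdt1 load the MCM ring onto DNA in G1. Kinases, Mcm10, Cdc45 and the GINS complex turn the ring into an active helicase in S phase, and the primase, the polymerases, the PCNA clamp and its loader then copy both strands. Many of these genes are transcribed as cells enter S phase, under E2F transcription factors. MPS1 inhibitors act later in the cycle, in mitosis, where they let cells divide with missegregated chromosomes. In RNA from a tumour piece, fewer cycling cells and less RNA per cell cannot be told apart.

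Library totals ran from 52983715 to 69108411 counts. Mavs was lower in all 6 knockout libraries (39.4 to 45.7 CPM, counts scaled to library size) than in all 6 reconstituted ones (50.1 to 85.1 CPM). Epithelial markers such as Epcam and keratins were read in all libraries. Of the same list, Cldn7 and the lung epithelial factor gene Nkx2-1 had 0 counts in all 12, and Esrp1 had 0 to 10 counts. Libraries of the same group differed before any test. Across all genes with a known transcript length, the Spearman correlation of length with a library's deviation from the gene's mean was -0.49 and -0.50 in reconstituted inhibitor replicates 1 and 2, but 0.19 in replicate 3 of that group. It was 0.33 to 0.43 in the 3 reconstituted controls and -0.25, -0.06 and 0.16 in the knockout controls. In knockout inhibitor tumours it was 0.41 in replicate 1 but -0.01 and -0.21 in replicates 2 and 3.

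Most promoters of these genes that could be read hold a sequence that the choice of the list did not use. A RefSeq promoter table (build GRCm38.p6, 250 bases before to 50 after the start) held 35 of the 43 genes. It was not limited to genes that passed the low-count filter, as all 43 did. The entries not found were Mcm4, Gins1, Gins2, Gins4, Rfc2, Prim2, Pole and Ccne2. The E2F core, searched on both strands as TTCCCGC or as TTCGCGC or as TTGCCGC or as TTGGCGC, was present in 22 of 35 (62.86%), against 10.86% of 27025 genes in the table. The CCAAT box, CCAAT on either strand, was also in 22 of 35 (62.86%, all genes 41.06%). The CHR element of mitotic genes, TTTGAA or else TTCGAA, was in 6 of 35 (17.14%, all genes 21.66%). The 13 promoters without these letters in the window included those of Mcm10, Pcna, Pola2, Rpa1 and E2f1 itself. Stretches before the start are printed for Mcm5, Prim1, Rfc3, Rpa2 and Rrm1 because values of these genes are discussed below. They are written on the gene's strand, with every E2F core in capitals on whichever strand it reads.
Mcm5: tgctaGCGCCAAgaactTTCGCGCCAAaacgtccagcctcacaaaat
Prim1: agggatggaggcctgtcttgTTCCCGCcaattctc
Rfc3: cggaagtgacgtcgcacgctTTCGCGCtc
Rpa2: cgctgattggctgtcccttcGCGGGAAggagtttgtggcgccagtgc
Rrm1: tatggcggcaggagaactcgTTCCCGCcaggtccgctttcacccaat
The Mcm5 stretch lies at chr8:75109340-75109386 on the plus strand and holds overlapping cores on opposite strands. Prim1 (chr10:128015180-128015214, plus) and Rfc3 (chr5:151651209-151651237, minus) carry the core close to the start. Rpa2 (chr4:132768303-132768349, plus) has it on the other strand, and Rrm1 (chr7:102441608-102441654, plus) is followed in the same window by a CCAAT box at its end.

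Levels between genes were compared per kilobase of annotated transcript, as the mean over the 12 libraries. Pcna, the sliding clamp that holds polymerases on DNA, was highest at 100.8 CPM per kb, followed by Mcm7 (47.9), the histone mRNA binding factor gene Slbp (44.1) and Mcm6 (43.8). At the low end were the origin complex subunit gene Orc1 at 2.47 CPM per kb, Gins3 (3.42), Gins2 (3.85) and the cyclin E1 gene Ccne1 (4.23). The 6 subunits of the MCM ring, which stand in equal numbers in the complex, ran from 20.7 (Mcm5) to 47.9 CPM per kb (Mcm7). The other clamp loader subunits were at 9.91 (Rfc2) to 18.3 CPM per kb (Rfc1), with Rfc3 above them at 36.0. Among the polymerase genes Pola2 had 17.6 CPM per kb and Pole had 4.78. In the ribonucleotide reductase pair, the large subunit gene Rrm1 (36.9) and the small subunit gene Rrm2 (35.4) had similar levels per kb. These levels rest on annotated lengths, and some transcripts lie largely outside the coding sequence, such as those of Gins2 (3900 bases, 555 coding), Rfc2 (4995, 1047 coding) and Gins3 (2519, 648 coding). Pcna is uncertain in a second way, since its processed pseudogene Pcna-ps2 held 1568 to 2682 counts per library beside 7450 to 11039 for Pcna, or 14.001% to 23.2% of both.

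**Figure D1:**
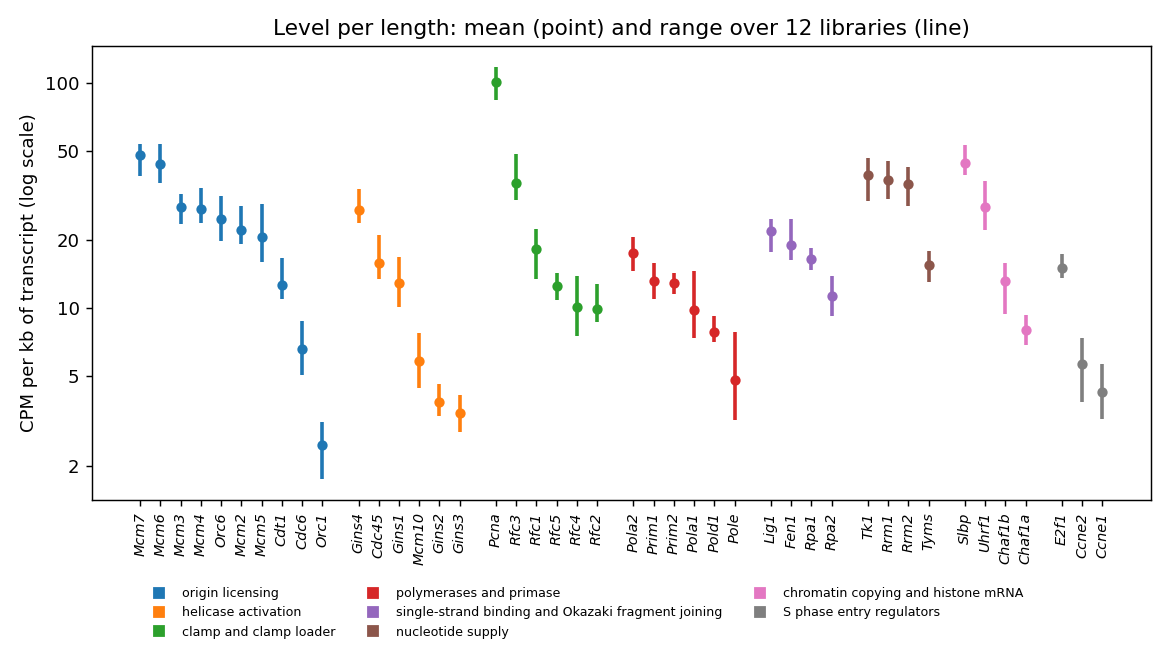
Level of each of the 43 genes in CPM per kilobase of transcript (log scale), grouped by role, with the mean (point) and the range over 12 libraries (line). Pcna stands highest at 100.8 and Orc1 lowest at 2.47. Ranges within a gene are short beside the span over all 43 genes. Ranges of neighbouring genes can overlap, such as those of Rrm1 (30.4 to 45.1) and Rrm2 (28.5 to 42.3).

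Within a gene the libraries lay close together. The ratio of the highest to the lowest of the 12 libraries had a median of 1.49 over the 43 genes, from 1.24 for the primase subunit gene Prim2 to 2.45 for Pole. Most pairs of these genes moved together from library to library. Over 903 pairs of genes the median Pearson correlation of log2 CPM across the 12 libraries was 0.53, and 89.4% of pairs were positive. These points share the depth, the composition and the length trend of each library. With the length trend removed, the median was 0.56 and 93.5% of pairs were positive. No such values are given for other genes, so moving together is not shown to be particular to this list. With the length trend still in, the most alike pair was Mcm2 and Mcm4, at 0.97. The least alike was then the clamp loader pair Rfc1 and Rfc4, at -0.81, whose transcripts differ in length (4751 and 1228 bases). The lowest value of any pair was -0.64 with the trend removed. Knockout control replicates 2 and 3 were low almost throughout, with 1 and 0 of 43 genes above their own mean, against 26 in replicate 1. Reconstituted inhibitor replicate 2 was high, with 40 of 43, while replicate 3 of that group had 6. The mean log2 CPM of the 43 genes was 5.20 ± 0.13 (SD, n = 3) in knockout controls, 5.32 ± 0.03 in knockout inhibitor, 5.38 ± 0.10 in reconstituted controls and 5.35 ± 0.15 in reconstituted inhibitor tumours. The ranges of all 4 groups overlapped.

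**Figure D2:**
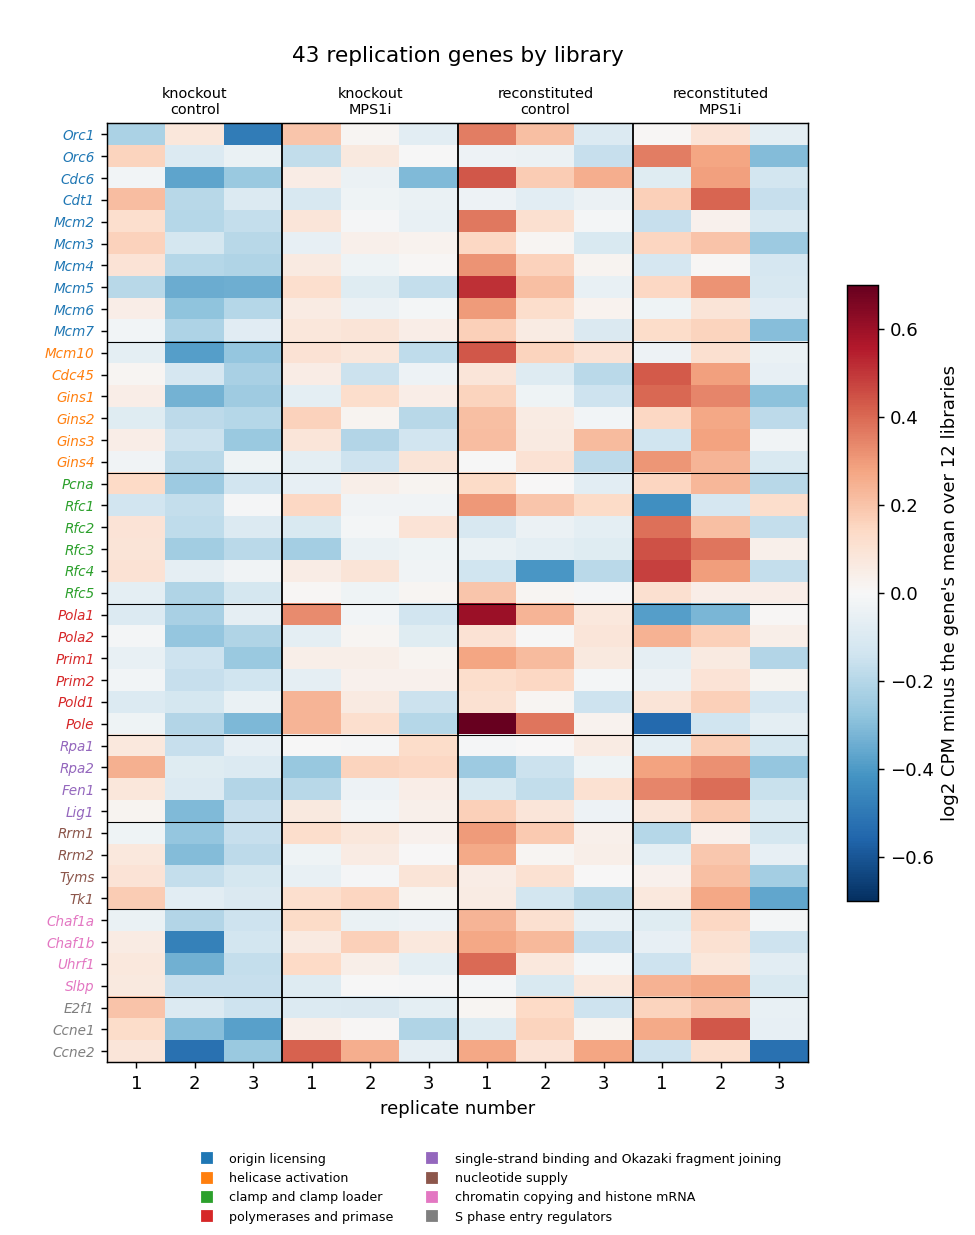
Log2 CPM of 43 replication genes (rows, coloured by role) in 12 libraries (columns, by group and replicate number), as the difference from the gene's mean over the libraries. Knockout control replicates 2 and 3 are low in nearly all rows, and reconstituted inhibitor replicate 2 is high in 40 of 43.

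In knockout tumours the log2 differences of these genes under the inhibitor ran from -0.08 (E2f1) to 0.42 (Ccne2), with wider intervals, given below. Rrm1, which makes deoxynucleotides from ribonucleotides, had 144, 121 and 131 CPM in knockout controls and 159.5, 155 and 149.5 CPM in knockout inhibitor tumours. All 3 treated libraries were above all 3 controls. The log2 difference was 0.23 ± 0.09 (SE, edgeR adjusted p = 1). Ccne2, the gene of cyclin E2, which drives entry into S phase, had 17.7, 11.6 and 13.9 CPM in controls and 22.1, 19.9 and 15.9 CPM under the inhibitor, and these overlapped. Its log2 difference of 0.42 ± 0.19 was the most positive of the 43. It was followed by Chaf1b (0.27), a subunit of the factor that places histones on new DNA, and Mcm5 (0.25). The 3 most negative were E2f1 (-0.08), the licensing factor gene Cdt1 (-0.05) and Orc6 (-0.04). The sign of these 3 turned when knockout control replicate 1 was left out.

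In that comparison edgeR called 0 of 43 genes at an adjusted p below 0.05, against 0% of all 17885 genes tested, and the DESeq2 Wald test called 0 of 43 (all genes 0.0168%). At an unadjusted p below 0.05 edgeR had 2 of 43, Rrm1 and Ccne2, both higher under the inhibitor (all genes 1.71%, with 0.654% higher and 1.05% lower). Log2 differences were above 0 for 39 of 43 genes (all genes 48.9%), with a median of 0.12 against 0.00 over all genes. The median was 0.06 without knockout control replicate 2 (33 of 43 above 0) and 0.19 without replicate 1 (43 of 43 above 0, 9 at an unadjusted p below 0.05 in edgeR). No all-gene share is given for unadjusted counts with a library left out, here and below. Changes in such counts are not read as particular to these genes. In 6 genes the 3 inhibitor libraries all exceeded the 3 controls (all genes 4.47%): Mcm5, Mcm7, Rfc5, Prim1, Rrm1 and Chaf1b. In 0 genes did all 3 lie below (all genes 4.25%). The 95% intervals of the 43 genes lay between -0.39 and 0.84, so differences past 0.84 log2 units were outside every interval.

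In reconstituted tumours the inhibitor differences of these genes followed transcript length in part. Long ones were mostly lower and short ones mostly higher, with exceptions, and none passed the test. Pole, the catalytic subunit gene of the leading strand polymerase, had 56.1, 43.2 and 33.8 CPM in reconstituted controls and 22.9, 30.2 and 31.7 CPM under the inhibitor. No treated library reached the lowest control, although the margin to it was narrow. The log2 difference was -0.65 ± 0.19 (SE, 95% interval -1.06 to -0.23, edgeR adjusted p = 0.0733). Pola1, the catalytic subunit gene of the polymerase that starts each new strand after the primer, had 78.3, 60.9 and 54.4 CPM in controls and 39.6, 41.4 and 51.9 CPM in treated tumours. The groups again did not overlap, and the difference was -0.54 ± 0.16 (edgeR adjusted p = 0.0733). Ccne2 followed with -0.38 ± 0.19 (edgeR adjusted p = 0.189), with groups that overlapped.

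Genes of the clamp loader, the complex that opens the PCNA ring, went both ways. Rfc3 had 45.4, 44.6 and 44.2 CPM in reconstituted controls and 63.9, 60.8 and 47.9 CPM under the inhibitor. All treated libraries were above the controls, with a log2 difference of 0.36 ± 0.12 (edgeR adjusted p = 0.0807). Rfc4 had 11.1, 9.28 and 10.8 CPM against 17.1, 15.0 and 10.96 CPM, and replicate 3 of the inhibitor group lay among the controls. Its difference was 0.47 ± 0.15 (edgeR adjusted p = 0.0785), and Cdc45, a helicase component gene, had 0.29 ± 0.13. The large subunit gene Rfc1, with 106, 98.6 and 94.7 CPM in controls and 64.0, 79.3 and 93.9 CPM under the inhibitor, lay the other way at -0.34 ± 0.12 (edgeR adjusted p = 0.0932). Rfc2 was at 0.23 ± 0.13, Rfc5 at 0.00 ± 0.08 and Pcna at 0.05 ± 0.12, so values of the 5 loader genes lay on both sides of 0.

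**Figure D3:**
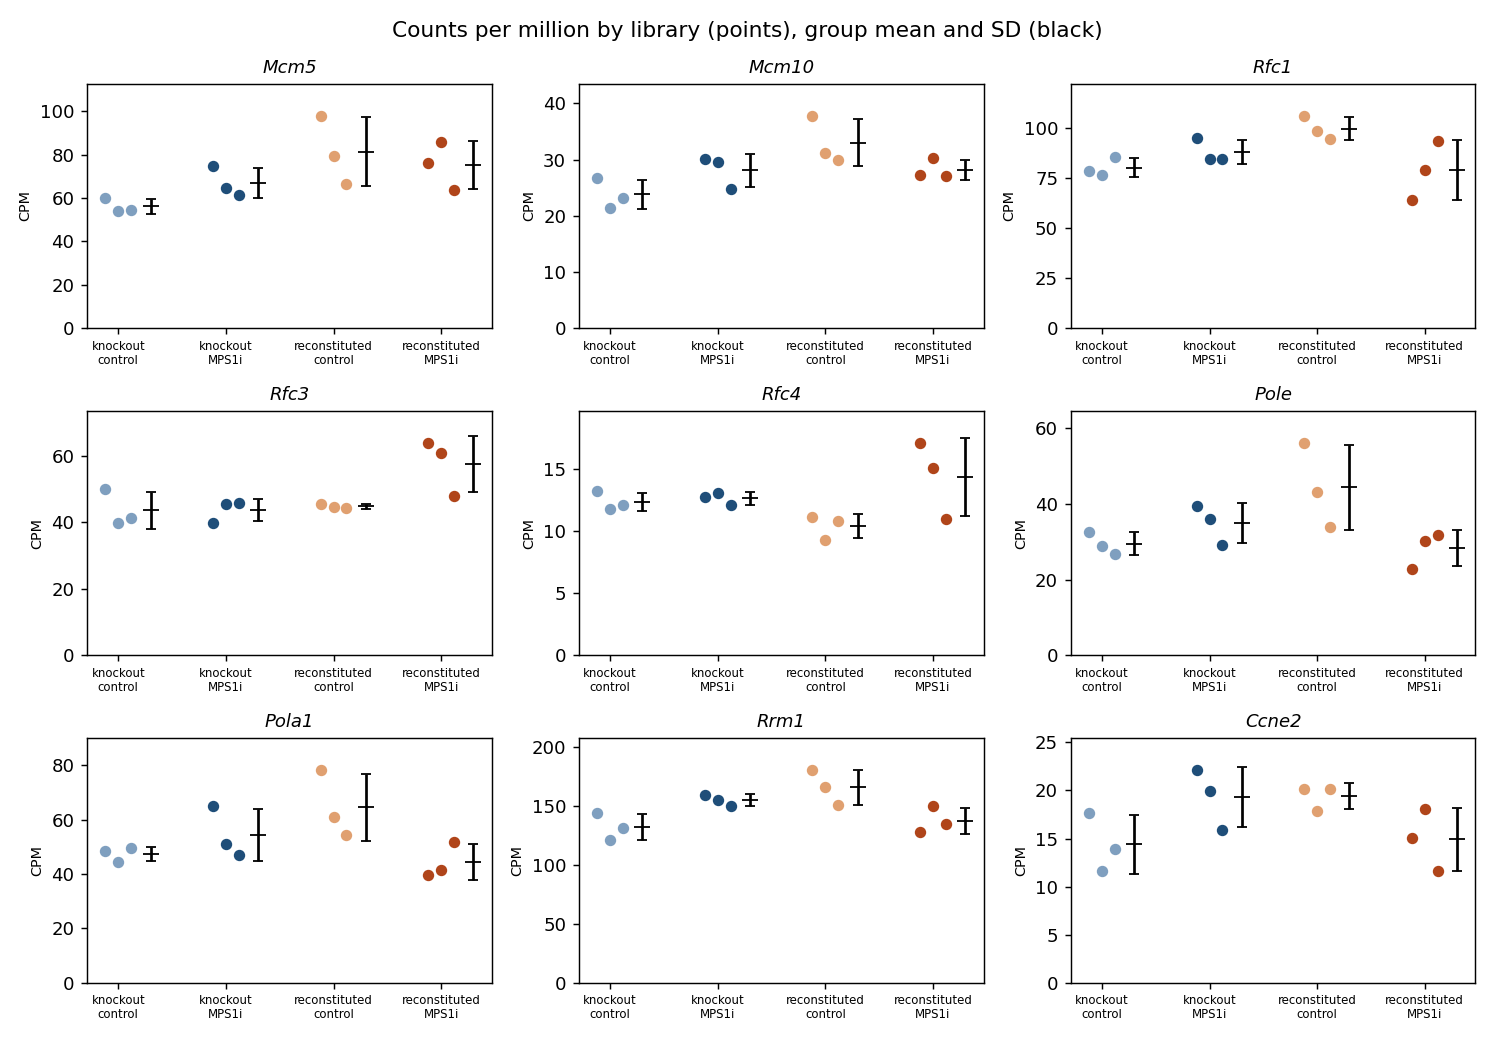
CPM of 9 replication genes in each of the 12 libraries (points, coloured by group) with the group mean and SD (black), on axes that start at 0. In reconstituted tumours Pole and Pola1 lie lower under MPS1i than in controls without overlap, Rfc3 lies higher, and Rfc4 overlaps through 1 library.

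Of the 43 genes, edgeR called 0 for the inhibitor effect in reconstituted tumours (all genes 0%). At an unadjusted p below 0.05 edgeR had 9 of 43, with 3 higher (Cdc45, Rfc3 and Rfc4) and 6 lower (Mcm4, Rfc1, Pola1, Prim1, Pole and Rrm1). That share was below the one of all genes (32.6%, with 17.6% higher and 15% lower). The groups were fully apart, treated below control, in the same 6 genes that were lower (all genes 14.8%), and in 1 gene, Rfc3, treated above control (all genes 14.7%). The median of the 43 was -0.02, and 20 of 43 were above 0 (all genes 49.5%). With 1 library left out the median took both signs, from -0.10 without reconstituted inhibitor replicate 2 to 0.06 without replicate 3. The 9 became 5 without replicate 1 of either reconstituted group and 16 without reconstituted inhibitor replicate 3, with no all-gene share beside these counts. DESeq2 called 7 of 43 (all genes 25.5%): Rfc3 and Rfc4 higher, and Rfc1, Pola1, Prim1, Pole and Rrm1 lower, at adjusted p from 0.014 to 0.0487. Without reconstituted inhibitor replicate 3, edgeR called 11 of 43 (all genes 31%), with 8 higher and 3 lower. The lower ones were Pole (-0.74, adjusted p = 0.0258), Pola1 (-0.67) and Rfc1 (-0.48), and the higher ones were Orc6, Cdc45, Rfc2, Rfc3, Rfc4, Rpa2, Fen1 and Slbp, at 0.27 to 0.63. Under both settings the members' share of calls was below that of all genes.

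**Figure D4:**
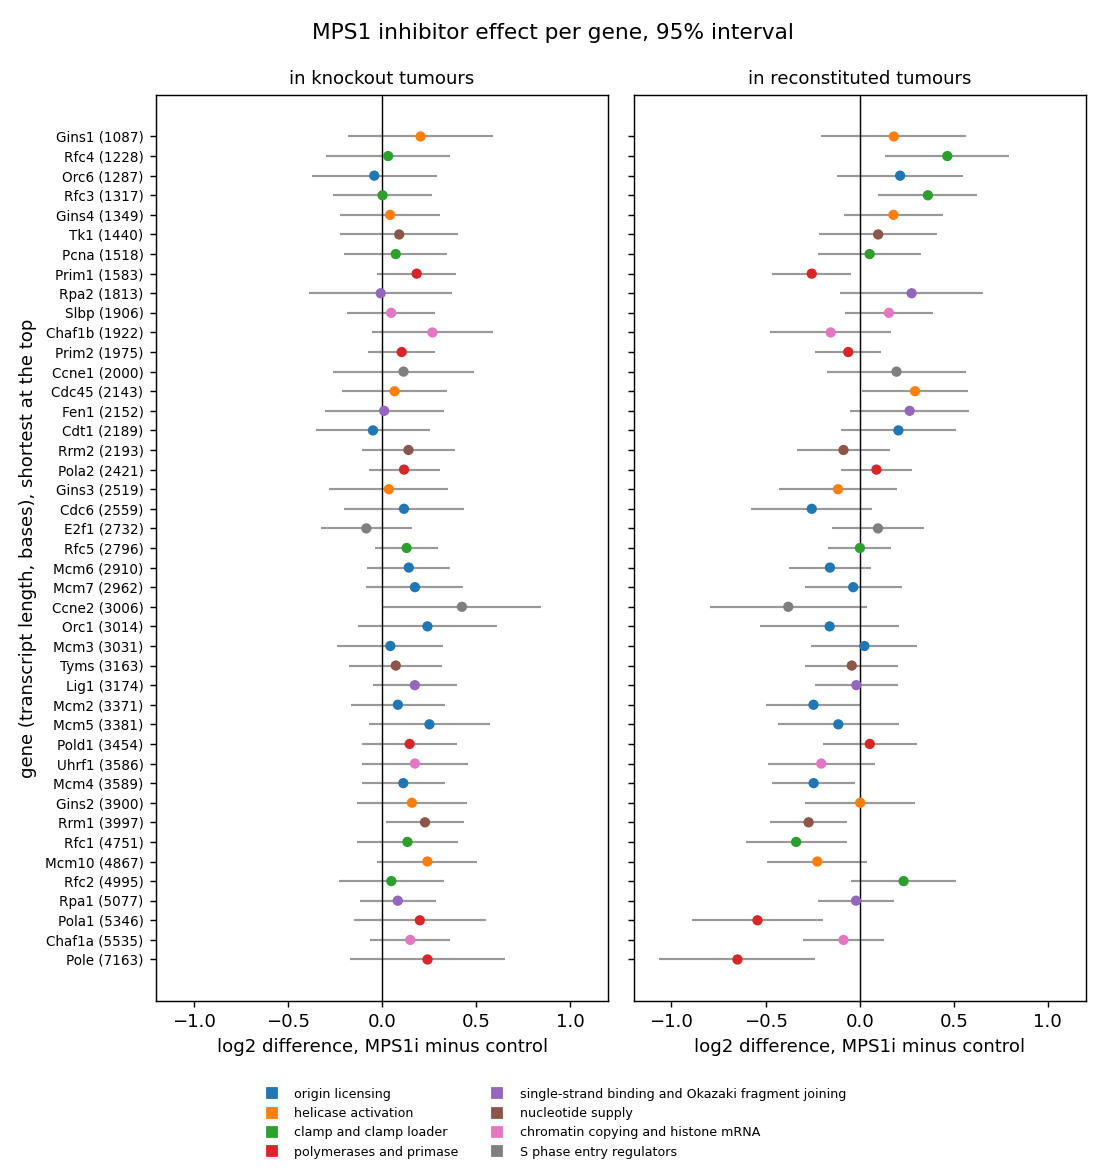
Log2 difference of MPS1i minus control with its 95% interval (edgeR) for 43 genes in knockout tumours (left) and reconstituted tumours (right), sorted by transcript length with the shortest at the top and coloured by role. On the right the points run from 0.47 for Rfc4 near the top to -0.65 for Pole at the bottom, and on the left 39 of 43 lie above 0.

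The MAVS effect in control tumours compared reconstituted with knockout tumours without inhibitor. It shares its knockout controls with the first comparison and its reconstituted controls with the second, so the 3 are not independent. Most of these genes had higher values in reconstituted tumours, and none passed the test. Mcm5, a subunit of the MCM ring, had 60.1, 54.1 and 54.4 CPM in knockout controls and 98.0, 79.5 and 66.4 CPM in reconstituted controls. The groups did not overlap, and the log2 difference was 0.53 ± 0.15 (SE, edgeR adjusted p = 0.162). Mcm10, which helps to start the helicase, had 26.7, 21.5 and 23.2 CPM against 37.8, 31.2 and 30.0 CPM, at 0.47 ± 0.12 (edgeR adjusted p = 0.155). Cdc6, the loader of the MCM ring, had 16.5, 12.9 and 13.9 CPM against 22.5, 18.8 and 19.8 CPM, at 0.50 ± 0.15 (edgeR adjusted p = 0.169).

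By role, the 6 polymerase and primase genes had the highest median in control tumours, 0.28, with 6 of 6 above 0 (all genes 50.4%). In 5 of 6 the reconstituted libraries all exceeded the knockout ones (all genes 15.6%). The margin was narrow for Prim2 (highest knockout 25.1, lowest reconstituted 25.2 CPM) and for Pola2 (42.1 against 42.5 CPM). Pole was at 0.59 ± 0.19 (edgeR adjusted p = 0.184), the primase gene Prim1 at 0.34 ± 0.10, Pola1 at 0.45 ± 0.16, Pola2 at 0.22 ± 0.09 and Prim2 at 0.19 ± 0.08. In Pold1, at 0.08 ± 0.11, the groups overlapped. The 10 licensing genes had a median of 0.25 and the 4 chromatin genes, among them Uhrf1 (0.30 ± 0.13), which binds newly copied methylated DNA, one of 0.26. The 4 genes of single-strand binding and Okazaki fragment joining were at a median of 0.04, with the most abundant of them by CPM, Rpa1, at 0.06 ± 0.09 and Lig1, the ligase gene, at 0.22 ± 0.10. Below 0 were 6 of 43 genes, led by Rfc4 (-0.25 ± 0.15), Rpa2 (-0.17 ± 0.17) and Orc6 (-0.09 ± 0.15, or 0.10 with the length trend described below removed).

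Over the list, edgeR called 0 of 43 for the MAVS effect in control tumours (all genes 0.14%, with 0.117% higher and 0.0224% lower). At an unadjusted p below 0.05 edgeR had 16 of 43, all higher (all genes 18.7%, with 8.85% higher and 9.89% lower). The median was 0.20 against 0.00 over all genes, with 37 of 43 above 0 (all genes 50.4%). The reconstituted libraries all exceeded the knockout ones in 14 genes (all genes 15.6%) and lay below them in 1, Rfc4 (all genes 15.5%). DESeq2 called 5 of 43, all higher (all genes 6.19%): Cdc6, Mcm5, Mcm10, Prim1 and Rrm1, at adjusted p from 0.0162 to 0.0347. The median held its sign when any single library was left out, from 0.16 to 0.28. Leaving out replicate 1 of the reconstituted controls lowered the 16 to 5, and leaving out knockout control replicate 2 or 3 lowered it to 7 or 10. How far the all-gene share at that cut-off changed is not given. Knockout control replicates 2 and 3, the 2 libraries with 1 and 0 genes above their own mean, are in this comparison.

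Under the inhibitor the MAVS effect on these genes centred near 0. Rfc3 had 39.7, 45.4 and 45.8 CPM in knockout inhibitor tumours and 63.9, 60.8 and 47.9 CPM in reconstituted ones. These did not overlap, at a log2 difference of 0.40 ± 0.12 (SE, edgeR adjusted p = 0.126). Ccne1 (0.28 ± 0.17) and Cdc45 (0.27 ± 0.13) came next, and Ccne2 (-0.38 ± 0.19), Pole (-0.30 ± 0.19) and Pola1 (-0.30 ± 0.16) were the most negative. edgeR called 0 of 43 (all genes 0.649%, with 0.52% higher and 0.129% lower) and had 2 of 43 at an unadjusted p below 0.05, Rfc3 and Pola2, both higher (all genes 19.7%, with 10.7% higher and 8.99% lower). DESeq2 called Rfc3 alone (0.39, adjusted p = 0.037, all genes 7.87%). Without reconstituted inhibitor replicate 3, edgeR called 5 of 43, all higher (all genes 15.4%): Orc6, Cdc45, Rfc3, Fen1 and Slbp, with 15 at an unadjusted p below 0.05 (all-gene share not given). The median of the 43 was 0.03, with 27 above 0 (all genes 51.1%), and it ran from -0.04 without reconstituted inhibitor replicate 2 to 0.10 without replicate 3. With all libraries, 4 genes had all reconstituted libraries higher (all genes 10.9%): Rfc3, Rfc5, Pola2 and E2f1. In 0 genes were all of them lower (all genes 9.77%).

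The interaction asks whether the inhibitor effect differed between genotypes, which is the question in the design text. Rrm1 was higher under the inhibitor in knockout tumours, as given above, while in reconstituted tumours controls had 180.5, 166 and 150.3 CPM and treated tumours 127.5, 149.7 and 134.5 CPM, all below. The margin between the lowest control and the highest treated library was under 1 CPM. The difference of the effects was -0.50 ± 0.13 (SE, 95% interval -0.79 to -0.21, edgeR adjusted p = 0.144). More negative values were found for Pole (-0.89 ± 0.27), Ccne2 (-0.80 ± 0.27) and Pola1 (-0.74 ± 0.23), each at an edgeR adjusted p of 0.144. Mean levels of Ccne2 were 14.4 ± 3.07 (SD, n = 3) and 19.3 ± 3.15 CPM in knockout tumours without and with inhibitor, and 19.4 ± 1.35 and 14.9 ± 3.24 CPM in reconstituted ones. The positive end was held by Rfc4 (0.43 ± 0.21), Rfc3 (0.36 ± 0.17) and Rpa2 (0.28 ± 0.24).

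For the interaction edgeR called 0 of 43 (all genes 0%), with 8 of 43 at an unadjusted p below 0.05, all negative (all genes 24.7%, with 13.6% positive and 11.1% negative). The median was -0.15 against 0.00 over all genes, and 13 of 43 were above 0 (all genes 50.3%). The median was -0.08 without reconstituted inhibitor replicate 3 and -0.23 without replicate 2. The 8 became 14 without knockout control replicate 1 or reconstituted inhibitor replicate 2, 15 without reconstituted control replicate 3 and 16 without reconstituted inhibitor replicate 3. All-gene shares at that cut-off are not given for these fits, so a change in all genes cannot be told apart. DESeq2 called 5 of 43, all negative (all genes 10.2%): Pola1, Prim1, Pole, Rrm1 and Ccne2, at adjusted p from 0.0272 to 0.0466. Without reconstituted inhibitor replicate 3, edgeR called 7 of 43 (all genes 21.9%), with Rfc1, Pola1, Pole and Rrm1 negative and Orc6, Rfc3 and Rfc4 positive. Averaged over genotypes, the inhibitor effect had a median of 0.06, with 32 of 43 above 0 (all genes 49.3%) and 0 of 43 called by edgeR (all genes 0%) and 1 at an unadjusted p below 0.05, Rfc4 at 0.25 ± 0.11 (all genes 7.82%, with 4.13% higher and 3.7% lower). Other values at the ends were Gins1 (0.19) and Rfc3 (0.18), and Pole (-0.20), Pola1 (-0.17) and Rfc1 (-0.10). DESeq2 called 0 of 43 there (all genes 0.0056%). Without reconstituted inhibitor replicate 3, edgeR had 13 of 43 at an unadjusted p below 0.05 (all-gene share not given) and the median was 0.10. Without replicate 2 of that group the median was 0.016, with 0 of 43 at that cut-off.

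Averaged over treatments, the MAVS effect was above 0 for 40 of 43 genes (all genes 50.1%), with a median of 0.11. It was led by Mcm5 (0.35 ± 0.10, edgeR adjusted p = 0.13), Cdc6 (0.31 ± 0.10) and Mcm10 (0.24 ± 0.09). The smallest edgeR adjusted p of the 43, 0.123, belonged to Pola2 (0.21 ± 0.06). The 3 genes below 0 were the thymidine kinase gene Tk1 (-0.08 ± 0.10), Rfc4 (-0.03 ± 0.11) and Rpa2 (-0.03 ± 0.12), and the last 2 were above 0 without reconstituted inhibitor replicate 3. edgeR called 0 of 43 (all genes 1.56%, with 1.09% higher and 0.47% lower). At an unadjusted p below 0.05 edgeR had 6, all higher (all genes 15.1%, with 8.12% higher and 6.97% lower), and DESeq2 called Mcm5 and Pola2 (all genes 6.06%). The 6 became 15 without reconstituted inhibitor replicate 3, 13 without knockout control replicate 1 and 4 without knockout control replicate 2, again with no all-gene share beside them.

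Transcript length went in part with the differences of these genes in most comparisons, as it did over all genes. Over the 43 genes the Spearman correlation of the log2 difference with transcript length was -0.59 for the inhibitor effect in reconstituted tumours, and it was -0.55 over the 14756 tested genes with a known length. For the inhibitor effect in knockout tumours it was 0.44 over the members (all genes 0.23), but 0.15 (-0.02) without knockout inhibitor replicate 1. It was 0.52 (0.37) for the MAVS effect in control tumours and -0.53 (-0.42) under the inhibitor. For the interaction it was -0.60 (-0.53), and for the MAVS effect averaged over treatments -0.03 (-0.03), with member values from -0.27 to 0.26 as single libraries were left out, the ends without reconstituted inhibitor replicates 3 and 1. These are correlations across genes that share the same libraries, not across replicates. With coding length in place of transcript length the member values were similar, at -0.59 for the inhibitor effect in reconstituted tumours and 0.47 in knockout tumours. Without reconstituted inhibitor replicate 3 the members' value for the inhibitor effect was -0.64 in reconstituted tumours. The 21 members shorter than the median of 2796 bases had a median inhibitor effect of 0.16 there, and the other 22 one of -0.14. With all genes split by length into 10 bins, their median ran from 0.48 in the shortest bin (median length 884 bases) to -0.36 in the longest (7797 bases).

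**Figure D5:**
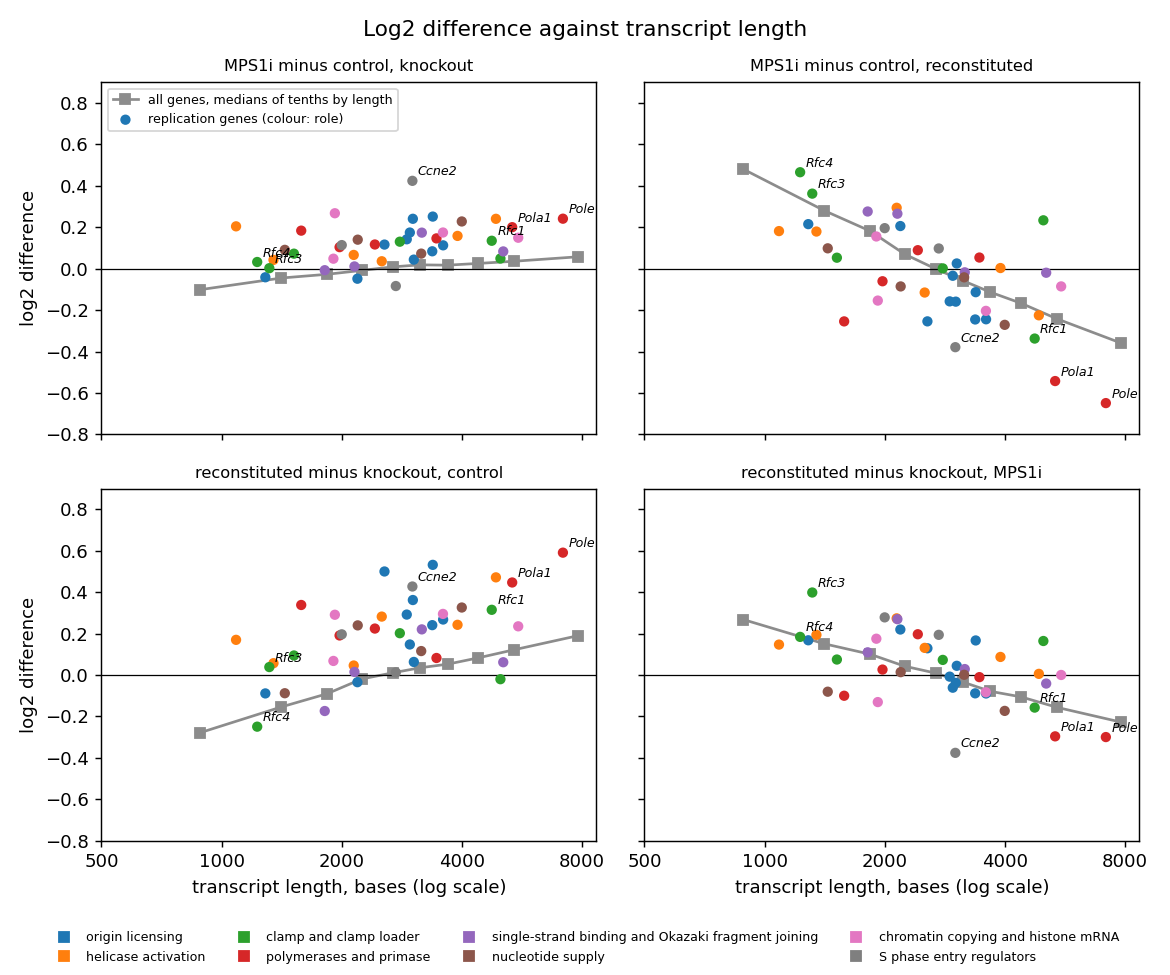
Log2 difference (edgeR) against transcript length in bases (log scale) for 43 replication genes (points, coloured by role) and the medians of all tested genes in 10 bins by length (grey squares), in 4 comparisons. In reconstituted tumours both fall from short to long transcripts under MPS1i, with all genes going from 0.48 to -0.36.

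When the length trend of each library was removed, an alternative chosen after these data were seen, the correlation over the members came to between 0.01 and 0.17 in all 7 comparisons. The difference for Pole in reconstituted tumours then went from -0.65 to -0.33 ± 0.16 (SE), and that for Pola1 went from -0.54 to -0.32 ± 0.12. Rfc3 went from 0.36 to 0.06 ± 0.07 and Rfc4 from 0.47 to 0.13 ± 0.11. Prim1, a short transcript of 1583 bases that lay low against the trend, moved away from 0, from -0.25 to -0.47 ± 0.09 (edgeR adjusted p = 0.105). Ccne2 hardly moved, from -0.38 to -0.34 ± 0.19. For the MAVS effect in control tumours the median of the 43 was 0.21 after the step and 0.20 before it, with 39 and 37 genes above 0. In edgeR 18 of 43 then had an unadjusted p below 0.05, for which no all-gene share is given. Called were 0 of 43 (all genes 0.38%). For the inhibitor effect in knockout tumours the median stayed at 0.12, with 41 above 0. The step led to 1 call among the 43 in all 7 comparisons, Rfc3 for the MAVS effect averaged over treatments (0.22 ± 0.05, edgeR adjusted p = 0.0295, all genes 3.78%). What sets the length trend was not tested.

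Other genes of the pathway were read from 5 lists with 100 genes in all: further fork and origin genes, nucleotide supply, replication-coupled chromatin, S phase control and the ATR checkpoint. edgeR called 0 of 100 in each of the 7 comparisons, where all genes had 0% to 1.56%. At an unadjusted p below 0.05 edgeR had 16 higher and 31 lower for the inhibitor effect in reconstituted tumours (all genes 17.6% and 15%), and 34 higher and 6 lower for the MAVS effect in control tumours (all genes 8.85% and 9.89%). The medians were -0.13 and 0.17. All values of these lists are from the main fit, with the length trend not removed. Named after their values were seen are Clspn, the gene of the checkpoint mediator claspin (-0.72 ± 0.18), and Atad5, whose product unloads PCNA (-0.66 ± 0.16), both at an edgeR adjusted p of 0.0729 for the inhibitor effect in reconstituted tumours.

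A list of 24 G2 and mitosis genes had a median of 0.20 for the inhibitor effect in knockout tumours, with 24 of 24 above 0 (all genes 48.9%), and 0.29 for the MAVS effect in control tumours. In reconstituted tumours its inhibitor median was -0.16 and its interaction median -0.33, with 0 of 24 called by edgeR in each. At an unadjusted p below 0.05 edgeR had 3, 11, 9 and 11 of 24 in these 4 comparisons, where all genes had 1.71%, 18.7%, 32.6% and 24.7%. Mki67, the gene of the proliferation marker Ki-67, had 204, 200.01 and 205 CPM in knockout controls, 279, 239.99 and 209.6 CPM in knockout inhibitor, 387, 296 and 259.6 CPM in reconstituted controls and 170.2, 186 and 237 CPM in reconstituted inhibitor tumours. Its interaction was -0.93 ± 0.23 (SE, edgeR adjusted p = 0.144). Cdk1, of the same list, lay the other way for the interaction, at 0.19 ± 0.17 (edgeR adjusted p = 0.514). It was also above 0 for the inhibitor effect in reconstituted tumours (0.26 ± 0.12) and below 0 for the MAVS effect in control tumours (-0.14 ± 0.12). Values in this paragraph are from the main fit, with the length trend not removed.

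Markers of other cells in the tumour pieces varied with the groups. Over the 12 T and NK cell markers, all of which passed the filter, summed levels were 18.4 to 44.2 CPM in knockout controls, 25.2 to 42.3 in knockout inhibitor, 55.5 to 83.8 in reconstituted control and 93.5 to 115.6 CPM in reconstituted inhibitor tumours. Gzmb was the largest term of every sum, at 5.04 to 16.2 CPM in knockout and 26.7 to 41.4 CPM in reconstituted controls. Prf1 (0.860 to 3.90 against 10.8 to 13.5 CPM) and Ncr1 (0.287 to 1.09 against 1.30 to 2.87 CPM) were also apart between these controls. The other markers of the list overlapped there, such as Cd3e (1.66 to 2.23 against 1.16 to 2.84 CPM). The 10 macrophage markers summed to 1642 to 2045, 1319 to 1772, 1314 to 1682 and 1833 to 2389 CPM in the same order. The 10 fibroblast and pericyte markers summed to 8087 to 18250, 7783 to 14976, 8736 to 9166 and 2993 to 8999 CPM. The 9 skeletal muscle markers spanned 2.74 to 2516 CPM over the 12 libraries. Epithelial markers, with Cldn7 at 0 counts in all libraries, summed to 7509 to 7924, 7363 to 8192, 6397 to 6816 and 6937 to 10131 CPM. The part of these cells in the differences of the replication genes was not tested.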

How the data were processed

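RNA was measured in 12 libraries (4 groups of 3). The labels' protocols name a stranded kit for polyadenylated RNA. The authors deposited whole-number counts per gene. The submitters' processing notes name Trimmomatic, HISAT2, StringTie and GRCm38 (mm10), without versions or roles. Strand use, shared reads and mate counting: not given in the sources used here. The members and lists were chosen with earlier results of these data known. Counts were fitted with edgeR 4.0.16 in R 4.3.3 (filterByExpr, TMM factors 0.920 to 1.03, 1 mean per group, quasi-likelihood F-test), with Benjamini-Hochberg adjustment over all 17885 genes. CPM use TMM factors. Lengths came from GENCODE M21 (RefSeq-linked transcripts first, found for 82.5% of tested genes and all members) and positions from RefSeq GRCm38.p6. Named with values were, per comparison, called members and the 3 highest and 3 lowest, and per role the most abundant member and that with the smallest p, besides Mavs, Ttk and Mki67. Ttk had 15.2 to 22.5 CPM over the libraries. Other genes were named after their values were seen. Alternatives were RLE, upper-quartile and total-count scaling, DESeq2 1.42.0, no filter, a replicate block, only the libraries compared, each library left out, and the length trend (lowess, span 0.3) as an offset.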

Additional observations from a re-analysis of the deposited data

How the results depend on the processing

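RLE and upper-quartile scaling and no low-count filter kept all counts of calls within 1.5 times. All-gene counts under edgeR were 0 and 0 for the inhibitor in knockout and reconstituted tumours, 25 and 116 for MAVS in control and under inhibitor, 0 for the interaction, and 0 and 279 for the averaged effects. DESeq2 gave 3, 3668, 827, 1243, 1365, 1 and 1020, with 0, 7, 5, 1, 5, 0 and 2 members. Total-count scaling gave 41 for MAVS in control tumours. Fits of only the libraries compared gave 1 for the inhibitor in reconstituted tumours, 10 for MAVS in controls and 64 under inhibitor. Removing the length trend gave 56, 335 and 558 for MAVS in controls, under inhibitor and averaged, with 1 member (Rfc3) in the last. It turned Orc6 to 0.012 in the inhibitor effect in knockout tumours and to 0.10 in the MAVS effect in controls. Why these settings differ was not tested.

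With 1 library left out, all-gene calls ran from 0 to 5683 for the inhibitor in reconstituted tumours (members 0 to 11) and from 0 to 80 for MAVS in controls, the lowest without knockout control replicate 2. They ran from 0 to 2816 for MAVS under inhibitor (members 0 to 5, the lowest without knockout inhibitor replicate 3) and from 0 to 4005 for the interaction (members 0 to 7). For the averaged effects they ran from 0 to 3 and from 115 to 331, the lowest without knockout inhibitor replicate 1. Every highest value but 331 (without reconstituted inhibitor replicate 2) came without reconstituted inhibitor replicate 3. Differences whose sign turned ran, with 1 library left out, from -0.14 to 0.031 for E2f1, from -0.13 to 0.082 for Cdt1 and from -0.095 to 0.039 for Orc6 in the inhibitor effect in knockout tumours, each highest without knockout control replicate 1. In the MAVS effect averaged over treatments they ran from -0.10 to 0.046 for Rfc4 and from -0.096 to 0.050 for Rpa2, both highest without reconstituted inhibitor replicate 3. Medians of the members moved by less than the SD between replicates (0.11). Leaving out 1 of 3 libraries could hardly move them by more, so this does not show that they are stable. Of these medians 2, near 0, took both signs: -0.10 to 0.06 for the inhibitor in reconstituted tumours and -0.04 to 0.10 for MAVS under inhibitor.

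With the replicate number as a block, all-gene calls went to 15 for MAVS in controls and 43 under inhibitor, and 0 members were called. Same-numbered libraries had correlated deviations of -0.11 to 0.31, over 0.1 in 9 of 18 pairs. Differently numbered pairs are not given beside them, so these values do not decide whether the numbers pair the libraries. The labels do not state that the number marks a shared batch, and the main fit used no block. Values of Pcna may include reads of its pseudogene.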
